A study of Mus musculus with 16 samples.

Results

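Histone gene expression was followed in whole lungs of newborn mice, homogenised at postnatal day 3, in which hyperoxia and loss of 1 Fgf10 allele had been combined. The members were the genes whose platform symbol carries a histone prefix (Hist1h, Hist2h, Hist3h, Hist4h, H1f, H2af or H3f). That rule found 63 genes, read by 76 array features, among 20173 named genes tested. They were divided into 46 replication-dependent histones, 10 replacement histones and 7 histones of the germ line. The groups were wild-type pups in normoxia, wild-type pups in hyperoxia, pups labelled Fgf10+/- in normoxia and pups labelled Fgf10+/- in hyperoxia, with 4 one-colour arrays in each. Hyperoxia was 85% oxygen from day 0 to day 3. Fgf10 encodes a mesenchymal growth factor of the developing lung, and the labels name no promoter or cell type to which the altered allele is limited. The labels do not say whether the 4 samples of a group came from separate litters, and the p-values measure the spread between these samples only.

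Histones are the proteins around which DNA is wound: H2A, H2B, H3 and H4 form the nucleosome core, and H1 binds the linker DNA between nucleosomes. Replication-dependent histone genes lie in clusters and are transcribed mainly in S phase, when a dividing cell must package a new copy of its genome. Their mRNAs typically lack introns and a poly(A) tail and end in a stem-loop, although some of these genes also give polyadenylated transcripts. Replacement histones are encoded by separate genes with ordinary polyadenylated mRNAs, are made throughout the cell cycle and serve gene regulation, DNA repair or the turnover of nucleosomes. The kit used here commonly primes on the poly(A) tail. The labels do not name its primer, so how fully the arrays report tailless histone mRNA is not known.

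The arrays spanned a log2 intensity scale whose highest value was 15.99, with a median of 4.5 and a 75th percentile of 6.98. Replicate arrays correlated across genes with r between 0.974 and 0.983. Fgf10 itself read 7.83, 8.14, 7.24 and 7.97 in wild-type normoxia, 7.64, 7.8, 7.9 and 8.07 in wild-type hyperoxia, 7.88, 8.29, 8.29 and 8.66 in normoxia arrays labelled Fgf10+/-, and 7.39, 7.96, 7.73 and 7.48 in hyperoxia arrays labelled Fgf10+/-. The genotypes overlapped at both oxygen levels and the position of the feature relative to the altered allele is not known, so this signal did not check the genotype labels, and the genotype names are those of the labels. The 7 markers of lung epithelium had a mean of 13.24 to 13.41 in wild-type normoxia, 13.45 to 13.54 in wild-type hyperoxia, 12.97 to 13.13 in Fgf10+/- normoxia and 13.43 to 13.51 in Fgf10+/- hyperoxia. Of these 1 was higher in hyperoxia in wild type and 3 in Fgf10+/-, against 10.3% and 13% of all genes. In normoxia 2 of the 7 were lower in Fgf10+/- than in wild type and 0 higher, against 0.719% of all genes called in either direction. The 6 markers of endothelium and mesenchyme went from 11.08 to 11.34 in wild-type normoxia to 10.62 to 10.92 in hyperoxia, and from 11.13 to 11.36 to 10.62 to 10.96 in Fgf10+/-, with 3 lower in each genotype, the same 3 (Pdgfra, Pecam1 and Cdh5). Among all genes 8.74% were lower in wild type and 10.7% in Fgf10+/-. The endothelium and mesenchyme calls in hyperoxia were falls, as most histone calls were. The epithelium calls were rises, but wild type had only 1, with a median difference of 0.0 over the 7 markers. In Fgf10+/- that median was 0.49. The part of either list in the histone differences was not tested. Skeletal muscle markers had a mean of 9.59 in wild-type normoxia replicate 4 against 5.04 to 6.36 in the other arrays, and brown fat markers 7.95 against 5.7 to 6.9. Without that array, 32 histone genes were called in hyperoxia in wild type and 31 in Fgf10+/-. Of all 20173 genes, 1505 were then lower and 1687 higher in wild type, and 2198 and 2681 in Fgf10+/-. The genotype comparison in normoxia went from 0 histone calls to 1 (H2bc4, limma adjusted p = 0.0364). Over all genes that comparison went from 23 higher and 122 lower to 81 and 211. In a homogenate, fewer cells of a type and less RNA per cell cannot be told apart.

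Promoters are shown for a few genes because they belong to the linker and core histones that fell (H1f5, H2ac4) or rose (H1f2, H2ac18) in hyperoxia and to a replacement histone (H2az1). Each is the 250 bases before the RefSeq gene start in GRCm38.p6, written 5′ to 3′ on the gene's strand. H1f5 lies at chr13:21780626-21780875 on the minus strand. The others are on the plus strand: H2ac4 at chr13:23750838-23751087, H1f2 at chr13:23738557-23738806, H2ac18 at chr3:96245247-96245496 and H2az1 at chr3:137864237-137864486. Capitals mark matches on either strand. The motifs searched were the octamer with the letters ATTTGCAT, the CCAAT box as its name spells it, the TATA box with the letters TATAAA, and the H1 box of linker histone genes with the letters AAACACA. None contains another, and a TATA box can run into an H1 box through shared A letters.
H1f5: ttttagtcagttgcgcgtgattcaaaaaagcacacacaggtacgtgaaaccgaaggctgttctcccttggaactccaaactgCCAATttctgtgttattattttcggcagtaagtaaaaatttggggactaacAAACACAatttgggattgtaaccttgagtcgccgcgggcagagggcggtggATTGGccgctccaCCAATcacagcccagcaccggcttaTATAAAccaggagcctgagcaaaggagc
H2ac4: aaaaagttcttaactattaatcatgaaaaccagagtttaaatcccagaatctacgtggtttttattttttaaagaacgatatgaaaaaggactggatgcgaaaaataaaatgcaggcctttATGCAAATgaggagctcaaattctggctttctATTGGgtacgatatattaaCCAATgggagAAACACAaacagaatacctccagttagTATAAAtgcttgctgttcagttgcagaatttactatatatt
H1f2: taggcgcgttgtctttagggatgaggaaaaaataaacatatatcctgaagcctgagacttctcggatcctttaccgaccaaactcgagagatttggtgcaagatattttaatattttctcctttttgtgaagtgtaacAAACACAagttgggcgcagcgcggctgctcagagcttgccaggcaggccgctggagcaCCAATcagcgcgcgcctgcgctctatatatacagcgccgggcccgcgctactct
H2ac18: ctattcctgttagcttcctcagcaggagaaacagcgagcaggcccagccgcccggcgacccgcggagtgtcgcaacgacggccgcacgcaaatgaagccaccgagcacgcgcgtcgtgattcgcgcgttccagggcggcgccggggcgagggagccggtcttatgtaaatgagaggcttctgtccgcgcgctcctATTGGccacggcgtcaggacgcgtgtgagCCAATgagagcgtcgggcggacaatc
H2az1: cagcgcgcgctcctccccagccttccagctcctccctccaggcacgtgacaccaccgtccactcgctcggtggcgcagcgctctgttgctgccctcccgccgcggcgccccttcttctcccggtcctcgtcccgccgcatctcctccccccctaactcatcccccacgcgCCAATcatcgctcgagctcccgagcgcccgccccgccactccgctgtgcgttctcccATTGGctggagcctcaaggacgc
As background, the octamer is typical of H2A and H2B promoters, and the H1 box of linker histone promoters. A promoter was matched for 55 of the 63 genes, which gave 56 promoters. The octamer occurred in 14 of these 56, against 1.6% of all 32851 promoters of the same length. The CCAAT box occurred in 43 of 56 against 33.8% of all promoters, the TATA box in 23 of 56 against 12.4%, and the H1 box in 10 of 56 against 6.25%. The octamer lay in 6 of 13 replication-dependent H2A promoters and 5 of 9 H2B promoters. It had no match in the 5 promoters of H1, the 6 of H3 and the 8 of H4. The H1 box lay in 4 of 5 H1 promoters, among them those of H1f5 and H1f2, which moved in opposite directions. All 5 H1, 13 H2A and 9 H2B promoters held a CCAAT box. Among the replication-dependent genes that fell in both genotypes, 14 of 18 promoters held a CCAAT box and 4 of 18 the octamer, and among those that rose in either genotype the counts were 3 of 4 and 0 of 4. These matches are descriptions of letters in a window and were not tested against the expression values.

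The first question was how histone transcripts differed between hyperoxia and normoxia in wild-type lungs. In these lungs 28 of the 63 histone genes were lower in hyperoxia, 5 were higher and 30 did not pass the test (limma, Benjamini-Hochberg adjusted p under 0.05 over all genes, n = 4 per group). Among all genes tested 8.74% were lower and 10.3% higher. In lungs labelled Fgf10+/- 29 histone genes were lower, 2 were higher and 32 did not pass, against 10.7% lower and 13% higher among all genes. The median log2 difference of the members was -0.54 in wild type and -0.52 in Fgf10+/-, while the median over all genes was 0.03 in both. The 2 hyperoxia differences come from separate arrays. Their calls are not independent, because all 16 arrays share 1 estimate of the spread. The falls were shared for the most part: 26 members were lower in both genotypes and 2 were higher in both.

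In both classes the calls were mostly falls, and a large share of the replication-dependent genes did not pass. Of the 46 replication-dependent genes, 20 were lower, 4 higher and 22 not called in wild type, and 20 were lower, 2 higher and 24 not called in Fgf10+/-. Of these, 19 were lower in both genotypes. Their log2 differences in wild type ran from -2.55 to 1.60, with a median of -0.65 in wild type and -0.47 in Fgf10+/-. With the features of each gene averaged, the Fgf10+/- median was -0.26. Of the 10 replacement genes, 8 were lower and 0 higher in each genotype, 7 of them in both. These counts use the brightest feature of each gene and include H2aj and, in Fgf10+/-, Macroh2a1, whose other features rose. Without these 2 genes, a choice made after their values were seen, 7 of 8 were lower in wild type and 6 of 8 in Fgf10+/-. Their differences ran from -1.32 to -0.08 in wild type, with medians of -0.73 and -0.68 over the 10 genes. With every feature fitted by itself the wild-type median was -0.47. The classes also differed in signal: 9 of the 10 replacement genes had a mean over the 75th percentile of the arrays, against 23 of the 46 replication-dependent genes. Of those 23, 16 were lower in each genotype. The class counts are thus not matched for signal, and no test set the 2 classes against each other.

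**Figure D1:**
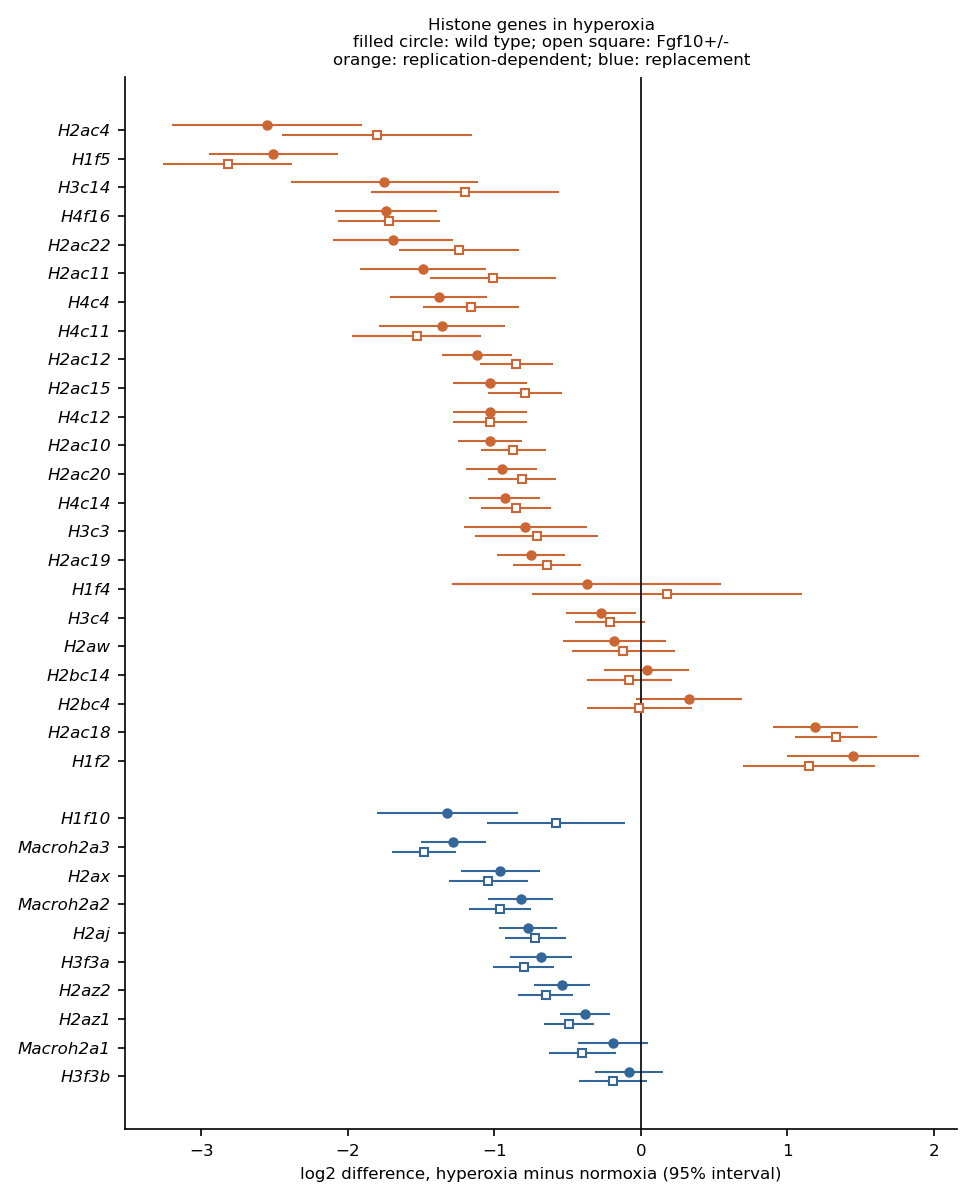
Log2 difference between hyperoxia and normoxia (x axis, with its 95% interval from limma) for the 23 replication-dependent histone genes whose mean signal lay over the 75th percentile of the arrays and for the 10 replacement histones; filled circles are wild type and open squares Fgf10+/-. H1f5 and H2ac4 lie farthest to the left at about -2.5 in wild type, H1f2 and H2ac18 lie to the right of 0, and the replacement histones lie between -1.48 and -0.08.

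Calls among the replication-dependent genes differed with their signal. Of the 23 genes with a mean over the 75th percentile of the arrays, 16 were lower and 2 higher in each hyperoxia comparison. Of the 14 genes between the median and the 75th percentile, 4 were lower in each genotype, and 2 were higher in wild type and 0 in Fgf10+/-. Of the 9 genes with a mean under the median, 0 were called in either comparison by limma, and 3 of them had an unadjusted p under 0.05 in wild type and 0 in Fgf10+/-. Near the floor of the scale a difference is compressed, so a fall in those 9 genes may not have been detectable on these arrays. The shares of all genes called in these ranges of signal were not counted. In wild type 1764 of all 20173 genes were lower, and 2019 of 15114 with a 50th percentile filter. How far the pattern by signal is particular to histones is thus not known.

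Linker histones included large changes in both directions. H1f5, which encodes a linker histone of dividing cells, read 10.82, 10.72, 10.61 and 10.73 in wild-type normoxia and 8.34, 7.98, 7.89 and 8.63 in wild-type hyperoxia. In arrays labelled Fgf10+/- it read 11.77, 11.56, 11.57 and 11.63 in normoxia and 8.21, 9.03, 9.32 and 8.69 in hyperoxia. Every hyperoxia array lay more than 1 log2 unit below every normoxia array. The mean fell from 10.72 ± 0.09 to 8.21 ± 0.34 in wild type (log2, SD, n = 4), a 5.7-fold decrease (log2 -2.51, SE 0.21, limma adjusted p = 5.52e-06), and 7.06-fold in Fgf10+/- (log2 -2.82, SE 0.21, limma adjusted p = 1.75e-06).

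H1f2, a linker histone gene whose transcript can also be polyadenylated, moved the other way. It read 9.18, 8.25, 8.86 and 8.76 in wild-type normoxia against 10.59, 9.97, 10.33 and 9.98 in hyperoxia, and 9.2, 8.81, 9.26 and 8.85 against 10.47, 10.32, 9.79 and 10.16 in Fgf10+/-. All hyperoxia arrays were higher than all normoxia arrays. The rise was 2.74-fold in wild type (log2 1.45, SE 0.21, limma adjusted p = 0.000303) and 2.22-fold in Fgf10+/- (log2 1.15, SE 0.21, limma adjusted p = 0.00113). Of the 5 replication-dependent linker histones, 2 were lower and 1 higher in each genotype. H1f4, chosen after its values were seen, had the widest error among the well-measured genes: its difference was -0.37 in wild type, with an interval from -1.28 to 0.55.

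The H2A genes made up the largest block of falls. Of 13 replication-dependent H2A genes 8 were lower and 1 higher in each genotype, with median log2 differences of -0.95 and -0.79. H2ac4, a core H2A gene of the chromosome 13 cluster, read 12.94, 12.95, 13.07 and 13.08 in wild-type normoxia and 10.8, 10.68, 9.49 and 10.86 in hyperoxia. Its Fgf10+/- arrays read 13.49, 13.35, 13.66 and 13.41 in normoxia and 10.75, 12.1, 11.88 and 11.98 in hyperoxia. Normoxia arrays were tightly grouped and hyperoxia arrays were all lower, with 1 low array in each hyperoxia group. The decrease was 5.87-fold in wild type (log2 -2.55, SE 0.3, limma adjusted p = 7.97e-05) and 3.48-fold in Fgf10+/- (log2 -1.8, SE 0.3, limma adjusted p = 0.000666).

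The next H2A genes by size of fall lay near the top of the scale. H2ac22 read 15.03, 15.01, 15.16 and 15.12 in wild-type normoxia and 13.72, 13.3, 12.85 and 13.66 in hyperoxia. In Fgf10+/- it read 15.48, 15.43, 15.42 and 15.38 against 13.64, 14.48, 14.39 and 14.24. H2ac11 read 15.46, 15.44, 15.55 and 15.48 against 14.2, 13.98, 13.44 and 14.36 in wild type, and 15.77, 15.7, 15.71 and 15.72 against 14.09, 14.98, 14.92 and 14.9 in Fgf10+/-. For both genes no hyperoxia array reached a normoxia array. H2ac22 changed by -1.69 (SE 0.19, limma adjusted p = 5.36e-05) in wild type and -1.24 (SE 0.19, limma adjusted p = 0.000347) in Fgf10+/-, and H2ac11 by -1.49 (SE 0.2, limma adjusted p = 0.00019) and -1.01 (SE 0.2, limma adjusted p = 0.00221).

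Altogether 8 H2A features, 7 of replication-dependent genes and that of H2aj, had a group mean over 15, within about 1 log2 unit of the highest value on the arrays. All 8 were lower in both hyperoxia comparisons, by -1.69 to -0.75 in wild type and -1.24 to -0.64 in Fgf10+/-. Saturation flags were not used here, so whether these falls are understated was not tested. H2ac15, named after its values were seen, has 1 feature in that range and a dimmer one. The brighter feature fell from a mean of 15.49 to 14.47 in wild type (log2 -1.03). The dimmer feature read 12.43, 12.43, 12.66 and 12.56 in wild-type normoxia and 10.2, 9.74, 9.37 and 10.26 in hyperoxia, a change of -2.63 (SE 0.19, limma adjusted p = 1.81e-06 with every feature tested). In Fgf10+/- the dimmer feature changed by -2.11 and the brighter by -0.79. The dimmer feature also fell further for H4c12, named after its values were seen: -1.03 for the feature with a mean of 13.45 and -1.77 for the one with a mean of 10.85 in wild-type normoxia. It was not so for every gene: H3f3a changed by -0.68 in its brighter feature and -0.44 in its dimmer, and H4c9 by -0.68 and, in a dimmer feature that did not pass, 0.36. The H2A genes encode near-identical proteins, and the arrays may not tell their transcripts apart, so the 8 genes are not 8 independent results.

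H2ac18 was the H2A gene that rose. It read 10.12, 9.58, 10.18 and 9.74 in wild-type normoxia and 11.16, 11.08, 11.12 and 11.03 in hyperoxia, and 9.46, 9.47, 9.82 and 9.53 against 10.87, 11.04, 10.9 and 10.77 in Fgf10+/-. The groups did not overlap in either genotype. The rise was 2.29-fold in wild type (log2 1.19, SE 0.13, limma adjusted p = 4.66e-05) and 2.51-fold in Fgf10+/- (log2 1.33, SE 0.13, limma adjusted p = 1.44e-05). H2ac19, its neighbouring copy on chromosome 3, was named after its values were seen and changed by -0.75 in wild type and -0.64 in Fgf10+/-. Since the copies are nearly identical, which transcript each feature reads is uncertain.

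H2B genes had the lowest share of falls among the core histones. Of 11 H2B genes, 1 was lower and 1 higher in wild type (9.09% each), near the 8.74% and 10.3% of all genes. In Fgf10+/- 1 was lower and 0 higher, against 10.7% and 13% of all genes. The median log2 differences were 0.04 in wild type and 0.06 in Fgf10+/-. The gene that fell was H2bc18 (-1.08 and -1.09), and the gene that rose in wild type was H2bu2 (0.78, adjusted p = 0.0248); both were named after their values were seen. Only 2 of the 11 H2B genes had a mean over the 75th percentile of the arrays, H2bc4 and H2bc14, also named after their values were seen. H2bc4 read 10.24, 10.23, 10.53 and 10.89 in wild-type normoxia and 10.98, 10.92, 10.74 and 10.57 in hyperoxia, and 10.77, 10.96, 11.45 and 11.2 against 11.14, 11.12, 10.92 and 11.15 in Fgf10+/-. Its groups overlapped in both genotypes. The difference was 0.33 (95% interval -0.03 to 0.69) in wild type and -0.01 (-0.38 to 0.35) in Fgf10+/-. For H2bc14 it was 0.04 (-0.26 to 0.33) and -0.08 (-0.38 to 0.21). These intervals leave out falls of the size seen in most bright H2A and H4 genes, but 2 genes do not stand for the H2B family, and the other 9 lay lower on the scale.

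**Figure D2:**
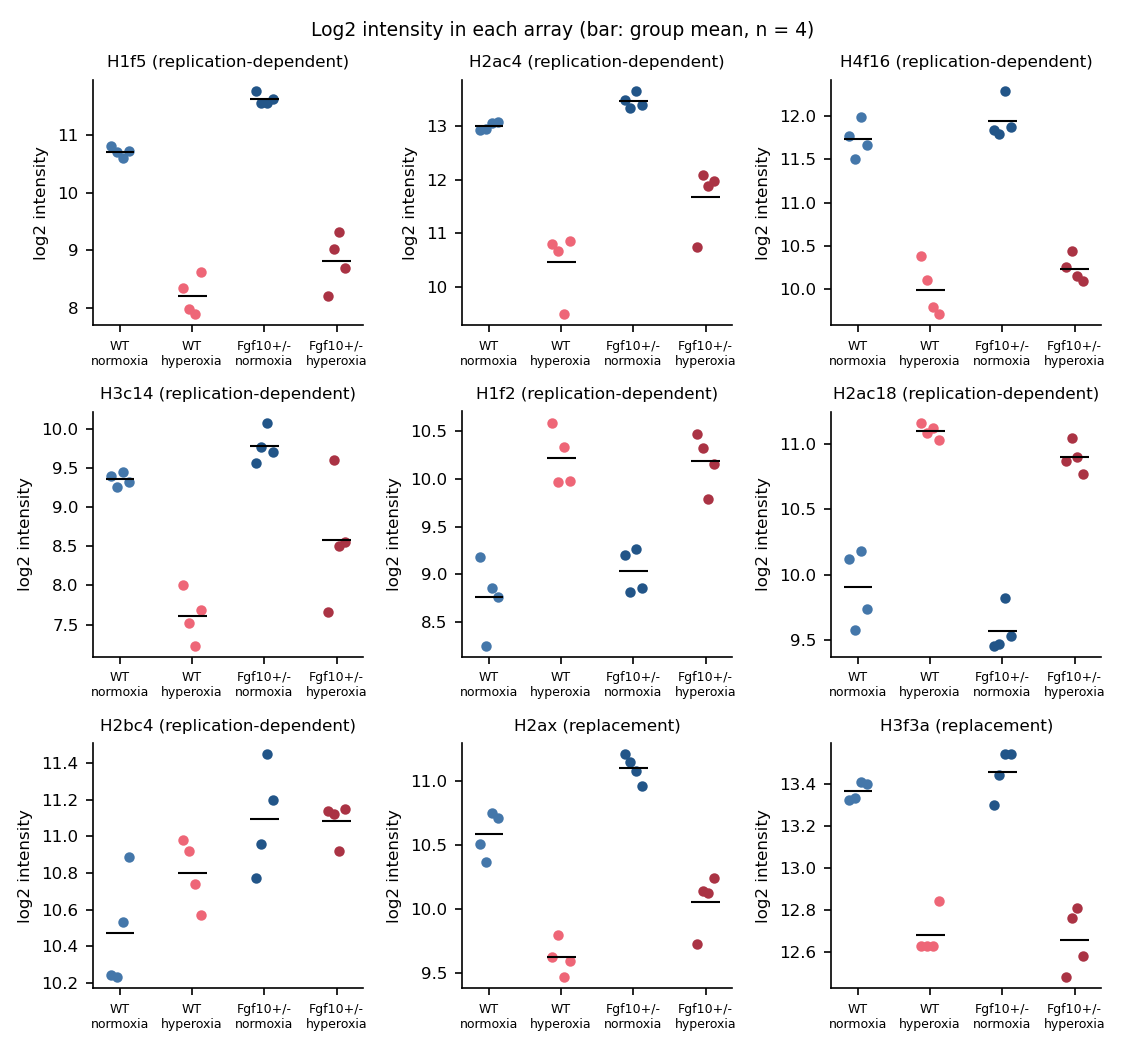
Log2 intensity (y axis) of 9 histone genes in each of the 16 arrays, by group (x axis), with 4 arrays per group and a bar at the group mean; each panel has its own y range, which does not start at 0. H1f5, H2ac4, H4f16, H3c14, H2ax and H3f3a are lower in hyperoxia, H1f2 and H2ac18 are higher, and the H2bc4 groups overlap; the H3c14 groups labelled Fgf10+/- also overlap, because replicate 2 in hyperoxia reads 9.6.

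H3 genes gave a mixed picture. Of 8 replication-dependent H3 genes 3 were lower in each genotype. H3c14 read 9.4, 9.26, 9.45 and 9.32 in wild-type normoxia and 8.01, 7.52, 7.23 and 7.68 in hyperoxia. The Fgf10+/- arrays read 9.56, 9.77, 10.08 and 9.7 in normoxia and 7.66, 9.6, 8.5 and 8.56 in hyperoxia. The wild-type groups were apart, and the Fgf10+/- groups overlapped through 1 hyperoxia array. The change was -1.75 (SE 0.3, limma adjusted p = 0.000943) in wild type and -1.2 (SE 0.3, limma adjusted p = 0.00879) in Fgf10+/-. The latter call was lost in a fit to the 2 Fgf10+/- groups alone (limma adjusted p = 0.0557).

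H3c15, which the platform annotates as a pseudogene of the same chromosome 3 locus, rose in wild type. It read 5.42, 5.96, 5.13 and 6.2 in normoxia and 6.98, 7.66, 7.15 and 7.33 in hyperoxia, with no overlap. The rise was 3.04-fold (log2 1.6, SE 0.26, limma adjusted p = 0.000639). In Fgf10+/- it read 5.72, 6.24, 6.83 and 6.47 in normoxia and 6.76, 6.55, 7.07 and 6.87 in hyperoxia, which overlapped (log2 0.5, SE 0.26, limma adjusted p = 0.192). The difference between the genotypes in this response did not pass the interaction test (-1.11, SE 0.36, limma adjusted p = 0.652). H3c14 and H3c15 are close copies, so the opposite signs in wild type are uncertain as to gene. The brightest feature among the replication-dependent H3 genes, of H3c4 (named after its values were seen), differed by -0.27 (95% interval -0.51 to -0.03, adjusted p = 0.116) in wild type and did not pass.

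H4 genes had the highest share of falls among the 5 histone types. Of 9 H4 genes 6 were lower and 0 higher in each genotype, with medians of -0.93 and -1. H4f16, a single H4 gene on chromosome 6 away from the clusters, read 11.77, 11.51, 11.99 and 11.67 in wild-type normoxia and 10.38, 10.1, 9.79 and 9.71 in hyperoxia. In Fgf10+/- it read 11.84, 11.79, 12.29 and 11.88 against 10.26, 10.44, 10.15 and 10.09. The groups were apart by over 1 log2 unit. H4f16 fell 3.34-fold in wild type (log2 -1.74, SE 0.16, limma adjusted p = 1.47e-05) and 3.28-fold in Fgf10+/- (log2 -1.72, SE 0.16, limma adjusted p = 9.85e-06).

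H4c11, an H4 gene of the chromosome 13 cluster, read 8.26, 8.01, 8.56 and 7.93 in wild-type normoxia and 7.16, 6.74, 6.59 and 6.81 in hyperoxia. In Fgf10+/- it read 8.52, 8.27, 8.82 and 8.26 against 7.08, 7.31, 6.95 and 6.43. No hyperoxia array reached a normoxia array. The change was -1.36 (SE 0.2, limma adjusted p = 0.000362) in wild type and -1.53 (SE 0.2, limma adjusted p = 0.000111) in Fgf10+/-. By position, 14 of 33 replication-dependent genes on chromosome 13 were lower in wild type, 5 of 9 on chromosome 3, 0 of 3 on chromosome 11 and the single gene on chromosome 6.

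Among the replacement histones, H2ax, the H2A variant phosphorylated at DNA double-strand breaks, read 10.51, 10.37, 10.75 and 10.71 in wild-type normoxia and 9.63, 9.8, 9.47 and 9.6 in hyperoxia. Its Fgf10+/- arrays read 11.21, 11.15, 11.08 and 10.96 against 9.73, 10.14, 10.13 and 10.24. All hyperoxia arrays were lower than all normoxia arrays. The change was -0.96 (SE 0.13, limma adjusted p = 0.000155) in wild type and -1.04 (SE 0.13, limma adjusted p = 5.88e-05) in Fgf10+/-. As background, H2ax is grouped here with the replacement histones, but part of its mRNA ends in the stem-loop of the replication-dependent class.

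H2az1 and H2az2 encode forms of the variant H2A.Z, which marks promoters. H2az1 read 13.72, 13.7, 13.81 and 13.77 in wild-type normoxia and 13.44, 13.47, 13.24 and 13.32 in hyperoxia, and 14.21, 14.01, 14.07 and 14.05 against 13.63, 13.59, 13.58 and 13.58 in Fgf10+/-. H2az2 read 11.94, 12, 12.14 and 12.04 against 11.56, 11.53, 11.43 and 11.44 in wild type, and 12.23, 12.33, 12.34 and 12.32 against 11.45, 11.67, 11.79 and 11.72 in Fgf10+/-. The groups were narrow and did not overlap. H2az1 changed by -0.38 (SE 0.08, limma adjusted p = 0.00368) and -0.49 (SE 0.08, limma adjusted p = 0.000477), and H2az2 by -0.54 (SE 0.09, limma adjusted p = 0.00075) and -0.65 (SE 0.09, limma adjusted p = 0.000141). The second, dimmer H2az2 feature fell by 1.03 in wild type and 0.79 in Fgf10+/-, and the second H2az1 feature by 0.5 and 0.48.

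The 2 genes of the replacement H3 protein, H3.3, gave different results. H3f3a read 13.32, 13.33, 13.41 and 13.4 in wild-type normoxia and 12.63, 12.63, 12.63 and 12.84 in hyperoxia, and 13.3, 13.44, 13.54 and 13.54 against 12.48, 12.76, 12.81 and 12.58 in Fgf10+/-. It fell in both genotypes without overlap, by -0.68 (SE 0.1, limma adjusted p = 0.000263) and -0.8 (SE 0.1, limma adjusted p = 5.4e-05). H3f3b read 13.66, 13.69, 13.58 and 13.29 against 13.57, 13.29, 13.57 and 13.47 in wild type, and 13.55, 13.22, 13.39 and 13.34 against 13.17, 13.24, 13.1 and 13.24 in Fgf10+/-. The H3f3b groups overlapped, and its difference was -0.08 (95% interval -0.31 to 0.15, limma adjusted p = 0.68) in wild type and -0.19 (-0.42 to 0.04, limma adjusted p = 0.243) in Fgf10+/-. The difference between the 2 genes was not tested.

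Of the remaining replacement histones, Macroh2a2, which encodes an H2A variant with a large macro domain, read 9.71, 9.93, 10.01 and 10.13 in wild-type normoxia against 9.15, 9.35, 8.95 and 9.08 in hyperoxia. The Fgf10+/- arrays read 10.15, 10.12, 10.15 and 10.14 against 9.09, 9.21, 9.24 and 9.16. The groups were apart, and the change was -0.82 (SE 0.1, limma adjusted p = 0.000116) and -0.96 (SE 0.1, limma adjusted p = 2.23e-05). Macroh2a3, named after its values were seen, read 9.66, 9.69, 9.74 and 9.73 in wild-type normoxia against 8.59, 8.46, 8.16 and 8.51 in hyperoxia, and 9.87, 9.91, 9.88 and 9.92 against 8.31, 8.5, 8.27 and 8.57 in Fgf10+/-. Its groups did not overlap, and it changed by -1.28 in wild type and -1.48 in Fgf10+/-.

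H1f10, a linker histone gene outside the clusters, read 5.78, 6.55, 6.26 and 6.7 in wild-type normoxia and 5.4, 4.88, 4.71 and 5.04 in hyperoxia, and 6.36, 6.14, 6.91 and 6.32 against 5.58, 5.86, 5.8 and 6.18 in Fgf10+/-. It fell in wild type (-1.32, SE 0.22, limma adjusted p = 0.00087), and the Fgf10+/- difference of -0.58 did not pass (SE 0.22, limma adjusted p = 0.0743). The interaction was 0.74 (SE 0.31, limma adjusted p = 0.737), so a difference between the genotypes was not shown.

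H2aj and Macroh2a1 had features that disagreed, and their direction is uncertain. The brighter H2aj feature read 15.12, 15.09, 15.23 and 15.18 in wild-type normoxia and 14.53, 14.33, 14.35 and 14.3 in hyperoxia, a fall of -0.77 (limma adjusted p = 0.000112). It changed by -0.72 in Fgf10+/-, from 15.55, 15.41, 15.5 and 15.34 to 14.51, 14.92, 14.77 and 14.72. The second H2aj feature rose, from 8.4, 8.12, 7.91 and 8.38 to 9.29, 9.3, 9.05 and 9 in wild type (0.96, limma adjusted p = 0.00047 with every feature tested) and by 1.22 in Fgf10+/- (limma adjusted p = 5.36e-05). Averaging both gave 0.09 in wild type and 0.25 in Fgf10+/-, of the opposite sign to the first feature.

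Macroh2a1 behaved alike. Its brightest feature read 9.86, 9.67, 9.67 and 9.65 in wild-type normoxia against 9.59, 9.48, 9.48 and 9.53 in hyperoxia, and 9.87, 9.67, 9.79 and 10.02 against 9.23, 9.7, 9.32 and 9.5 in Fgf10+/-. It differed by -0.19 (limma adjusted p = 0.271) in wild type and by -0.4 (limma adjusted p = 0.0152) in Fgf10+/-, where the groups overlapped. The second feature rose by 0.65 (limma adjusted p = 0.00575) and 0.75 (limma adjusted p = 0.00167), and the third differed by 0.28 and 0.17 and did not pass. The Fgf10+/- call of the brightest feature was also lost without 1 array (limma adjusted p = 0.051 without hyperoxia replicate 1, and 0.0522 without normoxia replicate 4). The features are assigned to different transcripts of the gene.

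**Figure D3:**
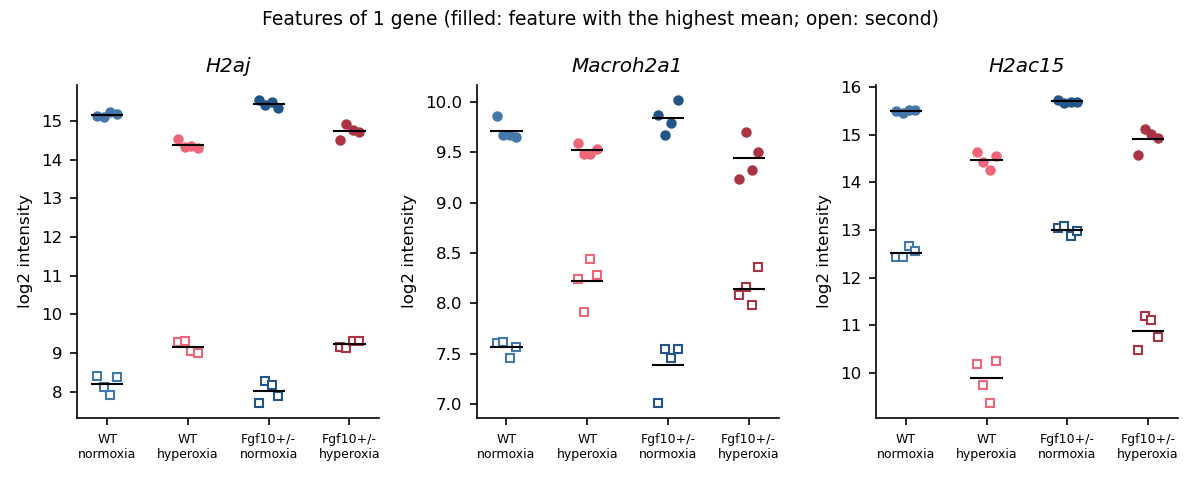
Log2 intensity (y axis) in each array by group (x axis) for the 2 brightest features of H2aj, Macroh2a1 and H2ac15; filled circles are the feature that stands for the gene, open squares the second, and bars are group means of 4 arrays. In hyperoxia the 2 features of H2aj and of Macroh2a1 move in opposite directions, and both features of H2ac15 fall, the dimmer by 2.63 and the brighter by 1.03 in wild type.

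The 7 germ line histones, grouped by symbol as histones of testis or oocyte, were mostly under the array median: 4 lay below it. In wild type 1 was higher, H2bc1 (0.55, adjusted p = 0.0462), and in Fgf10+/- 1 was lower, H2ab2 (-1.11, adjusted p = 0.0247). Both were named after their values were seen. Neither passed in the other genotype, and the medians of the 7 were -0.2 and -0.31. H2bc1 had a mean of 9.66 over all arrays, over the 75th percentile of 6.98, and what its feature reads in lung was not tested. In Fgf10+/- H2ab2 went from a mean of 4.54 to 3.42, which is under the 25th percentile of 3.69 and near the floor.

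The second question was whether the response to hyperoxia differed with genotype. By the test of the difference itself, 0 of the 63 histone genes passed the interaction test (limma, adjusted p under 0.05), against 0% of all genes. At an unadjusted p under 0.05 there were 4, and the share of all genes at that limit was not counted. The smallest interaction p among the members belonged to H3c15 and H1f10, whose values are given above. The intervals are wide: for H2ac4, the largest fall in wild type, the interaction was 0.76 with a 95% interval from -0.17 to 1.68. H4c9 was lower in wild type alone and H4c3 in Fgf10+/- alone, both named after their values were seen, and neither difference in response was shown.

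**Figure D4:**
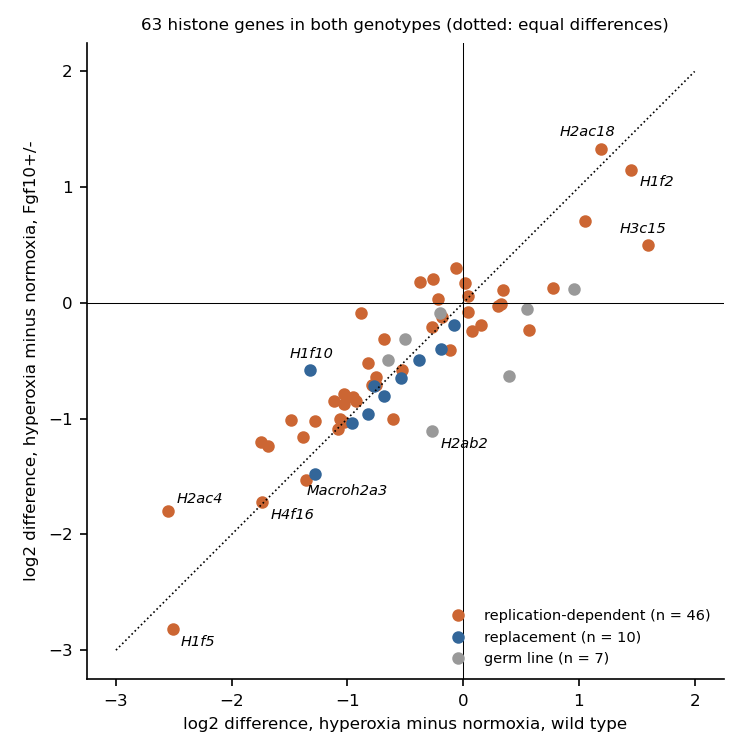
Log2 difference between hyperoxia and normoxia in wild type (x axis) against that in Fgf10+/- (y axis) for all 63 histone genes, 1 point per gene, coloured by class, with a dotted line of equal differences; the axes share no arrays. H1f5 lies at -2.51 and -2.82, and H2ac18 and H1f2 lie above 1 on both axes. All 10 replacement histones, each plotted by its brightest feature, lie below 0 on both. With the mean of all features H2aj lies above 0 on both and Macroh2a1 above 0 in Fgf10+/-. In wild type the Macroh2a1 features differ by -0.19, 0.65 and 0.28, so its direction is uncertain there too.

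Genotype was then compared at each oxygen level. In normoxia 0 of 63 members passed in the comparison of Fgf10+/- with wild type, against 0.719% of all genes, and 14 had an unadjusted p under 0.05. The median difference was 0.2, against 0.0 over all genes, and 51 of 63 were above 0. The unadjusted count and the count above 0 have no background, since the shares of all genes were not counted. H1f5 came closest: its mean was 11.63 ± 0.1 in Fgf10+/- against 10.72 ± 0.09 in wild type (SD, n = 4), with no overlap (log2 0.91, SE 0.21, limma adjusted p = 0.0615). H2az1 followed with 0.34 (SE 0.08, limma adjusted p = 0.0708). Other settings of the fit called up to 7 members, as the closing section gives.

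In hyperoxia 0 of 63 members passed between the genotypes, against 0.411% of all genes, and 20 had an unadjusted p under 0.05. The median difference was 0.22, against -0.01 over all genes, and 43 of 63 were above 0. The shares of all genes above 0 or with an unadjusted p under 0.05 were not counted, so these counts have no background. The smallest p belonged to H2ac10 and H2ac12, core H2A genes of chromosome 13. H2ac10 read 14.35, 14.15, 14.03 and 14.28 in wild type and 14.41, 14.83, 14.78 and 14.66 in Fgf10+/-, and H2ac12 read 14.47, 14.31, 14.1 and 14.43 against 14.51, 15.04, 14.93 and 14.84. The Fgf10+/- arrays were all higher, and replicate 1 was the lowest of them for both genes. The differences were 0.47 (SE 0.1, limma adjusted p = 0.077) and 0.51 (SE 0.12, limma adjusted p = 0.0949). In normoxia H2ac10 read 15.2, 15.15, 15.34 and 15.27 in wild type and 15.6, 15.52, 15.54 and 15.51 in Fgf10+/-, and H2ac12 read 15.38, 15.38, 15.57 and 15.47 against 15.7, 15.68, 15.69 and 15.66, so both also lay below their normoxia values in hyperoxia (H2ac10 -1.03 and -0.87, H2ac12 -1.12 and -0.85).

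The count of 0 in hyperoxia changed with 1 array. Without Fgf10+/- hyperoxia replicate 1, 8 members were higher in Fgf10+/-, against 0.397% of all genes called in that fit. They were H2ac4 (1.53), H3c14 (1.28), H2ac22 (0.99), H2ac11 (0.94), H2ac12 (0.61), H2ac10 (0.56), H2ac15 (0.55) and H2ac20 (0.53), with limma adjusted p between 0.0187 and 0.0445. Most are the H2A genes that may share signal, as given above. That array had the lowest value of its group for H1f5, H2ac4, H2ac22, H2ac11 and H2ac12.

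The same array was also lowest of its group for genes of proliferating cells (Mki67, Top2a, Birc5, Bub1b, Ccnb2, Plk1 and Cdk1). The mean log2 intensity of these 7 genes was 9.29 to 9.72 in wild-type normoxia, 6.84 to 7.54 in wild-type hyperoxia, 10.04 to 10.12 in Fgf10+/- normoxia and 7.99 to 8.74 in Fgf10+/- hyperoxia. All 7 were lower in hyperoxia in both genotypes, with medians of -2.4 and -1.55, against 8.74% and 10.7% of all genes lower. In hyperoxia 5 of the 7 were higher in Fgf10+/- than in wild type, and in normoxia 1 was. Of all genes, 0.411% and 0.719% were called in either direction in these comparisons. The part of the 7 markers in the histone differences was not tested. As an array summary, the median deviation of the 46 replication-dependent genes from wild-type normoxia was -0.37, -0.67, -0.8 and -0.7 in wild-type hyperoxia and -0.44, -0.15, -0.46 and -0.46 in Fgf10+/- hyperoxia, which overlap.

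**Figure D5:**
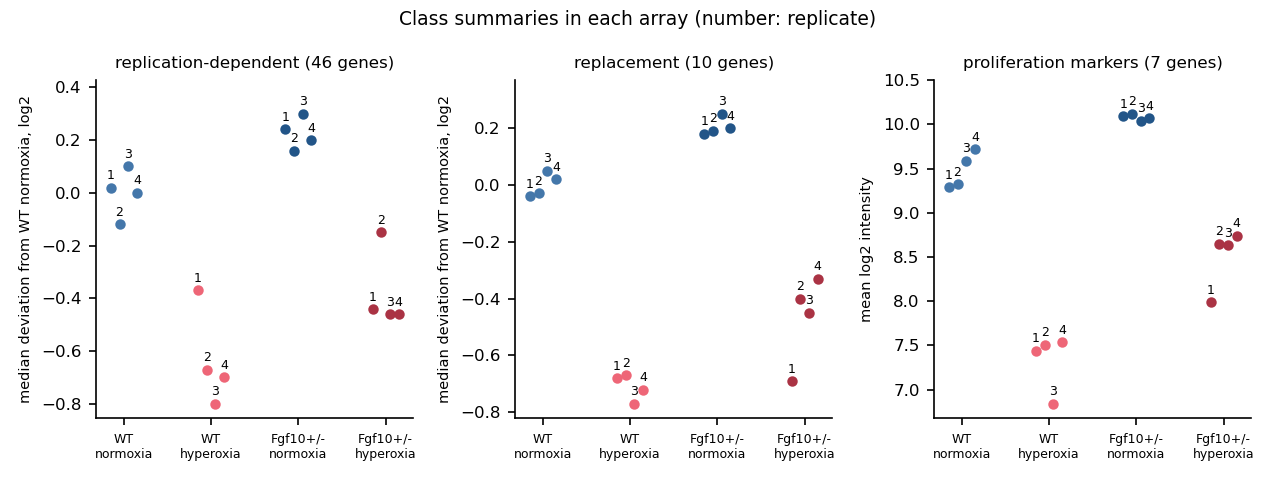
Array summaries by group (x axis, numbers are replicates): the median deviation from the wild-type normoxia mean (log2, y axis) over 46 replication-dependent and 10 replacement histone genes, and the mean log2 intensity of 7 proliferation markers. All hyperoxia arrays lie below all normoxia arrays in each panel; wild-type replicate 3 is lowest in each panel, and Fgf10+/- replicate 1 is the lowest of its group for the replacement histones and the proliferation markers.

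Genes that serve histone supply were read from a list of 15 genes for transcription, 3′ end processing and decay of histone mRNA. In wild type 2 were lower and 1 higher, and in Fgf10+/- also 2 and 1, a share near that of all genes. Slbp, which encodes the protein that binds the histone stem-loop, read 7.7, 7.84, 8.1 and 7.77 in wild-type normoxia and 7.09, 6.6, 7.26 and 7.08 in hyperoxia, and 8.17, 8.05, 8.12 and 7.6 against 7.12, 7.23, 7.27 and 6.75 in Fgf10+/-. It fell without overlap in both (-0.85, limma adjusted p = 0.00312, and -0.89, limma adjusted p = 0.00166). The other calls were Eri1, an exonuclease of histone mRNA (-0.68 in wild type), Upf1, a helicase of its decay (0.42 in wild type), Cstf2 of the cleavage complex (-0.5 in Fgf10+/-) and Lsm10, a subunit of the processing particle (0.49 in Fgf10+/-). Npat, the coactivator of histone transcription, lay under the array median and did not pass (-0.26 and 0.14).

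Histone chaperones, the proteins that carry and deposit histones, were read from a list with 22 measured genes. In wild type 11 were lower and 2 higher, against 8.74% and 10.3% of all genes, and in Fgf10+/- 13 were lower and 2 higher, against 10.7% and 13%, with medians of -0.36 and -0.51. Of the genes that handle H3 and H4 at replication, Asf1b (-1.54 and -1.36), Chaf1b (-1.63 and -1.33) and Chaf1a (-1.33 and -1.22) fell in both genotypes. Rbbp4, a further subunit of the complex that Chaf1a and Chaf1b form, differed by -0.31 and -0.35 and did not pass, as did Asf1a (0.16 and 0.29). Ipo4, an importin of H3 and H4, rose (0.69 and 0.36). Falls in both genotypes were also seen for Nasp (-0.66 and -0.87), a carrier of soluble H3 and H4, and Rbbp7 (-0.76 and -0.73) and Hat1 (-1.07 and -1.12), which act on new H4. Among genes for H3.3 deposition, Atrx fell (-0.87 and -0.86), while Hira (-0.17 and -0.19), Cabin1 (0.16 and 0.07) and Daxx (0.13 and 0.07) did not pass. The partners of Hira, Ubn1 and Ubn2, were lower in Fgf10+/- (-0.44 and -0.38) and did not pass in wild type (-0.21 and -0.26). Anp32e, a chaperone of H2A.Z, fell by -0.7 and -0.73.

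The centromeric H3 variant Cenpa, which the symbol rule leaves out, read 9.25, 9.64, 9.67 and 9.9 in wild-type normoxia and 6.78, 6.95, 6.38 and 7.1 in hyperoxia, and 10.23, 10.28, 10.08 and 10.03 against 7.5, 8.33, 8.31 and 8.63 in Fgf10+/-. It changed by -2.81 and -1.96, and in hyperoxia it was higher in Fgf10+/- than in wild type by 1.39 (limma adjusted p = 0.0169), without overlap. Its chaperone Hjurp fell in wild type (-1.14, limma adjusted p = 0.00262), and the Fgf10+/- difference of -0.65 did not pass (limma adjusted p = 0.0506).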

How the data were processed

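Lung homogenate RNA of 16 mouse pups (4 groups of 4, taken from the sample titles) was amplified and labelled with Cy3, per the labels' protocols, and hybridised to one-colour Agilent arrays. The values used are the log2 intensities that the authors deposited in the series' value table. Neither background correction nor normalization is named in these sources; every array had the same median, 4.5. The 31465 features with 1 platform symbol were renamed through RefSeq accessions where possible (60 of the 63 histone genes), and 31511 features without a symbol were not used. Features entered the fit when 4 or more of the 16 arrays placed them over that array's 25th percentile (75 of the 76 histone features), and the kept feature with the highest mean stood for its gene.

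All 20173 genes were fitted with limma 3.58.1 in R 4.3.3 (1 mean per group, 12 residual degrees of freedom), with Benjamini-Hochberg adjustment over all genes in each of 5 contrasts. The fit was tested on simulated data. The number of arrays limits the precision. Values in each array are given for the 6 replication-dependent genes with the largest fall and up to 3 with the largest rise per hyperoxia comparison, for the somatic replacement histones, and for the 2 genes with the smallest p in each genotype comparison. From the other lists, up to 4 genes with the smallest p per hyperoxia comparison are given, and always Slbp, Cenpa, Hjurp and Npat; further genes of these lists were chosen after their values were seen. The members, classes and lists were chosen with earlier results of these data known, and H2ab2 was moved to the germ line class after the files were read. Promoter sequences are RefSeq's for GRCm38.p6. Alternatives changed the filter, the choice of feature, the scaling, the moderation, array weights, the groups fitted, a fold minimum of 1.5, a replicate block and each array in turn.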

Additional observations from a re-analysis of the deposited data

Results flagged for a closer look

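In each group of 4 arrays, the 21 members named by the rule were searched for 1 array apart from the other 3 by Dixon's criterion at 0.829. It marked 7 of 84 groups of values, and chance marks about 1 in 20. The marked arrays are given as values, and no cause was tested. H2ac4 had 2: wild-type hyperoxia replicate 3 read 9.49 against 10.68 to 10.86 in the others, and Fgf10+/- hyperoxia replicate 1 read 10.75 against 11.88 to 12.1. H2ac11 read 14.09 in the same Fgf10+/- hyperoxia replicate 1, against 14.9 to 14.98. H2ac18 read 9.82 in Fgf10+/- normoxia replicate 3 against 9.46 to 9.53. H2az2 read 12.23 in Fgf10+/- normoxia replicate 1 against 12.32 to 12.34. H3f3a read 12.84 in wild-type hyperoxia replicate 4 against 12.63 in each of the others. Macroh2a1 read 9.86 in wild-type normoxia replicate 1 against 9.65 to 9.67.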

How the results depend on the processing

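The number of histone genes called in hyperoxia ranged from 29 to 39 in wild type and from 27 to 38 in Fgf10+/- over the alternatives that kept all arrays (the highest count of 75 features rather than 63 genes), and from 30 to 34 and 28 to 32 with each array left out. Genotype counts moved more. In normoxia the count was 3 with a 50th percentile filter (H1f5, H2az1, H2ax), 7 with trend and robust moderation, 3 with array weights, and 0 to 2 with each array left out. Calls over all genes rose in these settings too. The main fit had 23 higher and 122 lower of 20173. The 50th percentile filter gave 56 and 227 of 15114, trend and robust moderation 101 and 332 of 20173, and array weights 84 and 282. In hyperoxia the histone count was 2 with the 50th percentile filter, 1 with every feature a row, 7 with trend and robust moderation, and 0 to 8 with each array left out. Over all genes the main fit had 59 higher and 24 lower of 20173. The 50th percentile filter gave 93 and 33 of 15114, every feature a row 70 and 22 of 30551, and trend and robust moderation 154 and 69 of 20173. Class medians also shifted. For replication-dependent genes they were -0.45 in wild type and -0.26 in Fgf10+/- with the mean of all features, and -0.61 in Fgf10+/- with the 50th percentile filter. Leaving out each array gave -0.77 to -0.51 in wild type, the latter without wild-type hyperoxia replicate 3. With every feature a row, replacement medians were -0.47 and -0.53. With the mean of all features, H2aj reversed to 0.09 in wild type and 0.25 in Fgf10+/-, and Macroh2a1 to 0.17 in Fgf10+/-. In Fgf10+/- with that mean H4f16 differed by -0.28 and lost its call; its second feature, which did not pass the filter, had means of 2.65 in normoxia and 3.81 in hyperoxia. In Fgf10+/- H1f10 passed with the 50th percentile filter (limma adjusted p = 0.0493) and without wild-type normoxia replicate 1 (limma adjusted p = 0.0466). The causes of the other changes were not tested.

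With the replicate block, 32 members were called in wild type and 31 in Fgf10+/- in hyperoxia, and 0 in each genotype comparison and in the interaction. The deviations of same-numbered arrays from their group means correlated with r from -0.0288 to 0.0873 over 24 pairs. The numbers were therefore not taken to pair the samples. No alternative scaling moved the median of all genes by over 0.05. Features at the floor, and those over 15, limit what can be read.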
